A study of Homo sapiens with 9 samples.

Results

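The genes described here are 7 non-clustered protocadherins (PCDH1, PCDH7, PCDH8, PCDH9, PCDH10, PCDH17 and PCDH19) and the 3 CELSR cadherins (CELSR1, CELSR2 and CELSR3), 10 of the 60664 genes in the deposited count tables. They were found by their symbols in those tables. They were chosen with earlier results of the same counts known, several of them for their difference between the groups, so their own values and calls are given as a description and support nothing. All 10 were among the 18299 genes that passed the filter on low counts.

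The cells were HEK293 Flp-In T-REx, a human embryonic kidney line with an integration site for a transgene that tetracycline switches on, and their RNA was sequenced. Cells expressing a microRNA against TTC33 (the TTC33 knock-down), cells expressing a microRNA against CCDC97 (the CCDC97 knock-down) and control cells without a microRNA gave 3 libraries each. All 3 groups, the controls included, received tetracycline at 100 ng/ml for 3 days. Each knock-down is thus 1 inducible microRNA in 1 cell line, and the controls carried no unrelated microRNA. The question was which transcripts respond to the loss of either protein. The labels do not say whether the 3 libraries of a group came from separate cultures, so p-values measure a spread between libraries that may be technical only.

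Non-clustered protocadherins are single-pass membrane proteins of the cadherin superfamily that bind the same protein on a neighbouring cell and mediate contact between cells, above all in the developing brain. The delta-1 members (PCDH1, PCDH7, PCDH9) have longer ectodomains and a cytoplasmic motif that binds protein phosphatase 1, and the delta-2 members (PCDH8, PCDH10, PCDH17, PCDH19) lack that motif, and several of them recruit the actin-regulating WAVE complex. CELSR proteins, the vertebrate relatives of fly Flamingo, combine a cadherin ectodomain with a receptor of the adhesion G protein-coupled class and act with Frizzled and Vangl proteins in planar cell polarity, the alignment of cells within a sheet, and in the growth of axon tracts.

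Between 21764203 and 36110891 reads were assigned to genes per library. The targeted genes followed the labels: TTC33 had 7.41 ± 1.96 CPM in the TTC33 knock-down and 37.8 ± 0.77 CPM in control, and CCDC97 had 15.6 ± 0.28 CPM in the CCDC97 knock-down and 60.1 ± 0.55 CPM in control (SD, n = 3 each). In the TTC33 knock-down, CCDC97 had 80.7 ± 15.4 CPM, above control in every library. In the CCDC97 knock-down, TTC33 had 43.2 ± 11.8 CPM and overlapped control. CPM stands for counts per 1000000 library counts after scaling with TMM factors. Markers of the HEK293 line summed to 258 to 265 CPM in the TTC33 knock-down, 247 to 260 CPM in the CCDC97 knock-down and 254 to 260 CPM in control, but 2 of the 5 moved in opposite directions in the TTC33 knock-down past the threshold used below. INA, a neuronal intermediate filament, rose there, with 96.9 ± 2.38 CPM in the TTC33 knock-down and 57.0 ± 0.75 CPM in control, and NEFL, another, fell, with 152 ± 5.25 CPM in the TTC33 knock-down and 188 ± 2.03 CPM in control, a call lost when any one control library was left out. Mature kidney markers summed to 82.2 to 93.5 CPM in the TTC33 knock-down, 122 to 123 CPM in the CCDC97 knock-down and 118 to 123 CPM in control. Almost all of this sum was LRP2 (megalin), which fell in the TTC33 knock-down, with 88.8 ± 6.26 CPM there and 121 ± 3.13 CPM in control, and UMOD was at 0 in all groups. The 7 neuron markers summed to 22.8 to 25.2 CPM in the TTC33 knock-down, 13.3 to 14.3 CPM in the CCDC97 knock-down and 13.9 to 15.5 CPM in control, none of them at 0 in a group. The 5 endothelium markers summed to 1.26 to 1.46 CPM in the TTC33 knock-down. That was above the 0.396 to 0.743 CPM of the CCDC97 knock-down and the 0.463 to 0.951 CPM of control. The 6 leukocyte markers stayed at or below 0.868 CPM in sum in every library. The 6 fibroblast markers summed to 8.1 to 10.6 CPM in the TTC33 knock-down, 6.29 to 8.7 CPM in the CCDC97 knock-down and 7.2 to 9.2 CPM in control. In bulk RNA, fewer cells of a type and less RNA per cell cannot be told apart.

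The first replicate of each knock-down differed from the other two libraries of its group by a trend with GC content. Among the 10% of genes with the lowest GC content, the median log2 difference from the control mean was 0.02, -0.45 and -0.49 in TTC33 knock-down replicates 1, 2 and 3, and -0.16, 0.15 and 0.15 in CCDC97 knock-down replicates 1, 2 and 3. In the ninth of the 10 GC classes, which holds PCDH1 and the 3 CELSR genes at 60.2% to 61.4% GC, it was -0.05, 0.25 and 0.29 with the TTC33 microRNA, and 0.10, -0.18 and -0.17 with the CCDC97 microRNA. PCDH9, at 34.3% GC, lay at the other end, at percentile 1.28 of the genes tested. Fold changes are therefore given as fitted and, where it changes a call or a direction, after subtraction of smooth trends with GC content and transcript length in each library. The part of these trends in the results below was not tested beyond that correction.

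**Figure D1:**
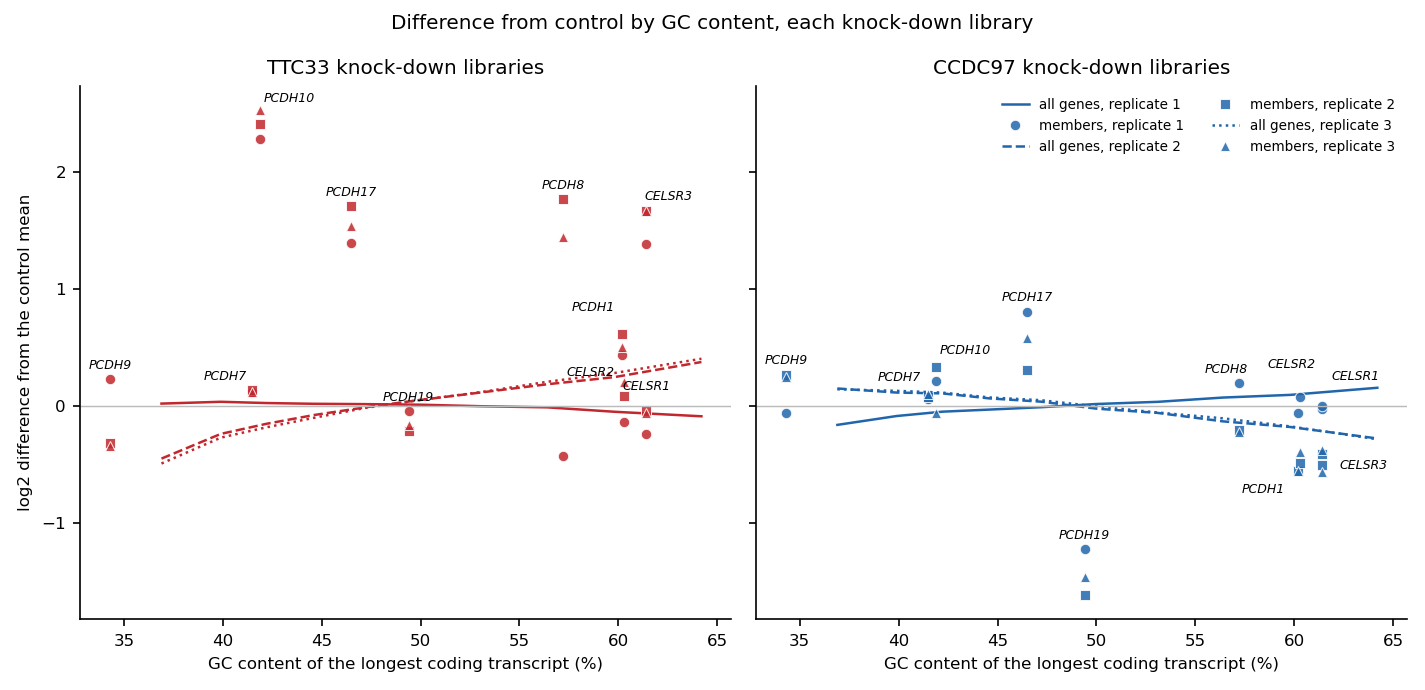
Log2 difference of each gene from its mean in the 3 control libraries (vertical axis) against the GC content of its longest coding transcript in percent (horizontal axis), with TTC33 knock-down libraries on the left and CCDC97 knock-down libraries on the right. Symbols are the 10 genes in replicates 1 (circle), 2 (square) and 3 (triangle), and lines join the medians of all genes in 10 GC classes. The replicate 1 line is nearly flat or tilts against the other 2, and CELSR1, CELSR2 and PCDH9 shift between replicate 1 and the others in the direction of the lines, while PCDH10, PCDH17 and CELSR3 (TTC33 knock-down) and PCDH19 (CCDC97 knock-down) lie away from them in all 3 libraries.

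In the TTC33 knock-down, CELSR3, PCDH10, PCDH17 and PCDH1 were higher than in control and past the adjusted threshold of 0.05. The test was the edgeR quasi-likelihood test, adjusted over all genes, and none of the 10 was lower and past the threshold as fitted. These 4 of 10 stand beside 11.9% of all genes called in that comparison, 6.5% higher and 5.44% lower. PCDH19 was lower in the CCDC97 knock-down than in control and past the threshold, and none was higher and past it. This 1 of 10 stands beside 4.56% of all genes called, 2.07% higher and 2.49% lower. Between the knock-downs, TTC33 against CCDC97, PCDH1, PCDH10, PCDH17, PCDH19 and CELSR3 were higher and past the threshold. None was lower and past it, and these 5 of 10 stand beside 21.5% of all genes called, 11.3% higher and 10.2% lower. With the GC and length correction, 6 of the 10 were higher and 3 lower (CELSR1, CELSR2 and PCDH19) in the TTC33 knock-down, beside 28.4% of all genes called. The corrected counts were 1 higher and 1 lower in the CCDC97 knock-down, beside 20.7%, and 6 higher and 1 lower between the knock-downs, beside 28.6%. Nothing is read from these counts, because the genes were chosen from the same contrasts. The median log2 fold change of the 10 genes against control was 0.33 for the TTC33 and -0.19 for the CCDC97 knock-down, where the median of all genes was 0.00 in both. Both comparisons share the control libraries.

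The libraries of 2 groups did not overlap for 6 of the 10 genes between the TTC33 knock-down and control, 5 of them higher and PCDH19 lower, beside 36.8% of all genes. They did not overlap for 2 of the 10 between the CCDC97 knock-down and control, PCDH7 higher and PCDH19 lower, beside 29.9% of all genes. Between the TTC33 and the CCDC97 knock-down they did not overlap for 6 of the 10, all higher in the TTC33 knock-down, beside 30.4% of all genes.

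**Figure D2:**
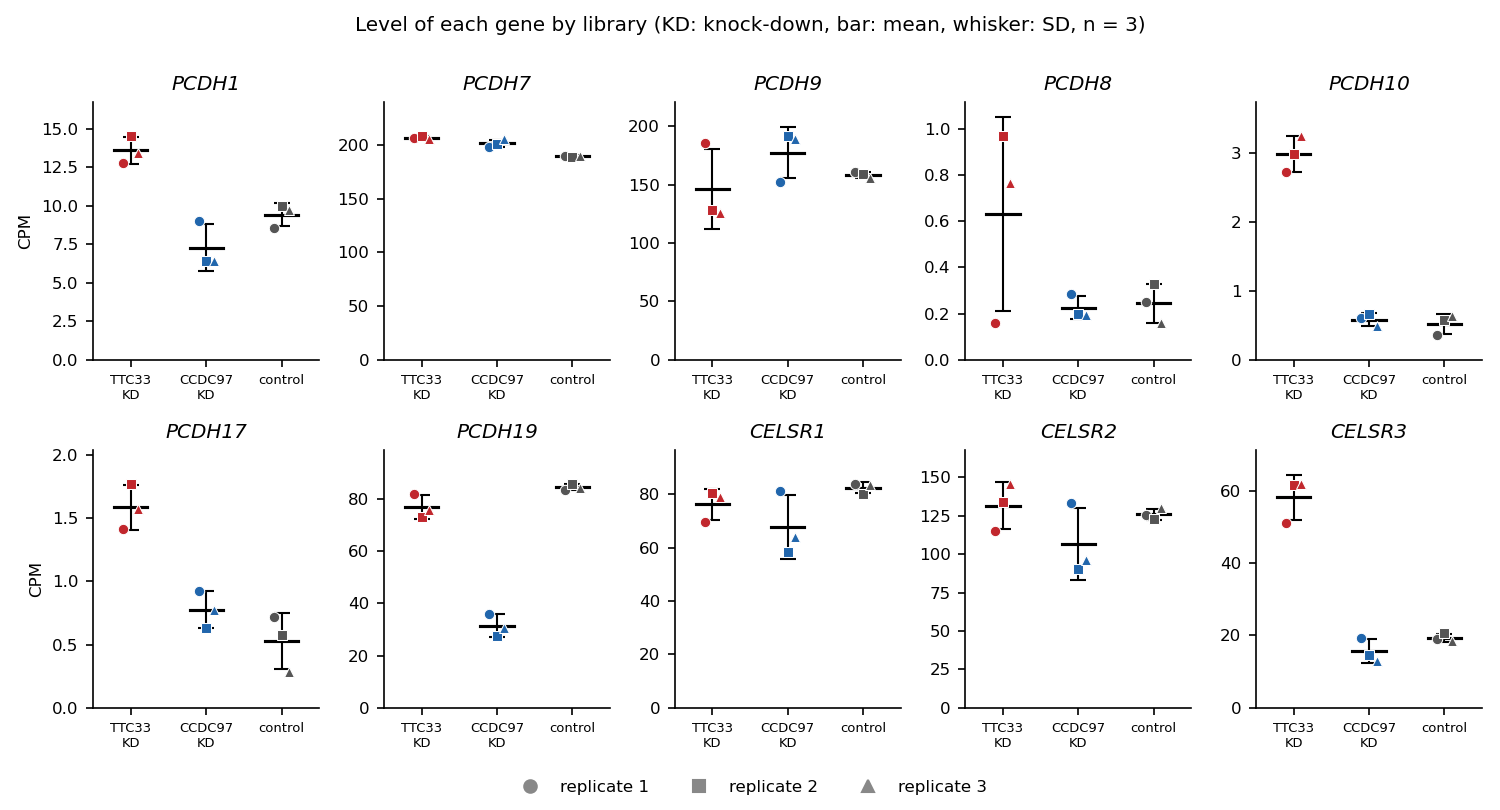
CPM (vertical axes, from 0, one scale per gene) of the 10 genes in each library of the TTC33 knock-down, the CCDC97 knock-down and control, from left to right. Symbols are replicates, the bar is the mean and the whisker the SD of 3 libraries. CELSR3 and PCDH10 stand higher in all 3 TTC33 knock-down libraries than in the other 6, and PCDH19 stands lower in all 3 CCDC97 knock-down libraries than in the other 6.

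CELSR3, which in mice is needed for the major axon tracts of the forebrain, lies on the minus strand at chr3:48636469-48662915 (GRCh38, GENCODE release 29). It had 51.0, 61.5 and 61.9 CPM in TTC33 knock-down replicates 1, 2 and 3, 19.3, 14.6 and 13.1 CPM in the CCDC97 knock-down and 18.9, 20.7 and 18.5 CPM in control. The lowest TTC33 knock-down library was above every other library, and the CCDC97 knock-down and control overlapped. The log2 fold change was 1.58 ± 0.14 (SE) in the TTC33 knock-down, a 3.00-fold higher level, and it was past the threshold in all 9 fits that left out one library. Against the same controls, the CCDC97 knock-down gave -0.30 ± 0.14, not past the threshold. Without CCDC97 knock-down replicate 1, that difference was -0.48 and past it. The smaller U count tables alone gave a log2 fold change of 1.65 for the TTC33 knock-down. The direct contrast of TTC33 against CCDC97 knock-down gave 1.89 ± 0.14.

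The sequence before a gene's start is where core promoter elements lie, and those of the genes that differed are shown for reference with the windows of RefSeq on GRCh38.p14, which held 8 of the 10 genes (not PCDH10 and CELSR1). Each is the 250 bases before the RefSeq start on the gene's own strand, and capitals mark a GC box (GGGCGG) or a CCAAT box (CCAAT) on either strand. The window of CELSR3, before a RefSeq start inside the GENCODE gene, is chr3:48662887-48663136 on the minus strand. Its GC boxes start 183 and 17 bases before the RefSeq start, the latter inside the GENCODE gene:

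CELSR3: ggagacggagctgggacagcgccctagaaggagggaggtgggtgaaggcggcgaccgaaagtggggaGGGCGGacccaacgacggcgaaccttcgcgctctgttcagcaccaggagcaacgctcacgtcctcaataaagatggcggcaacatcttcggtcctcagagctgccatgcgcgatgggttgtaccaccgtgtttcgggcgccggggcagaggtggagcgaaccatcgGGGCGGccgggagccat

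Of 35116 RefSeq promoter windows of this length, 42.6% held a GC box, 32% a CCAAT box and 10.7% a TATA box (TATAAA), each counted on both strands, and none of the 3 is contained in another. The CELSR3 window had 65.2% GC and 25 CpG dinucleotides, where the medians of all windows were 58% and 11. These matches are descriptions of the letters, and binding to them was not measured.

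CELSR1, which in mice is needed for neural tube closure and the alignment of hair follicles, had 69.7, 80.3 and 79.0 CPM in the TTC33 knock-down, 81.2, 58.4 and 63.9 CPM in the CCDC97 knock-down and 83.9, 80.2 and 83.5 CPM in control. The 3 groups overlapped. Replicate 1 was the lowest library of the TTC33 knock-down and the highest of the CCDC97 knock-down. CELSR2, which in mice acts with CELSR3 in the cilia of ependymal cells, had 115, 134 and 146 CPM in the TTC33 knock-down, 133, 90.1 and 96.0 CPM in the CCDC97 knock-down and 126, 123 and 130 CPM in control. In both knock-downs its replicate 1 lay on the other side of the control mean from replicates 2 and 3. In the TTC33 knock-down, neither gene was past the threshold as fitted (log2 fold change -0.11 ± 0.11 for CELSR1 and 0.06 ± 0.14 for CELSR2), and with the GC and length correction both were lower and past it, at -0.36 and -0.17. In the CCDC97 knock-down, CELSR1 was at -0.28 ± 0.11 and CELSR2 at -0.24 ± 0.14, not past the threshold, and without replicate 1 of that group they were at -0.43 and -0.44 and past it. Between the knock-downs, TTC33 over CCDC97, CELSR1 was not past the threshold as fitted, and with the correction it was lower, at -0.21, and past it.

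Per length, CELSR2 was the most abundant of the 3 and CELSR3 the least in every group. CELSR3 made up 20.1% ± 0.39 of the summed CPM per kb of the CELSR genes in the TTC33 knock-down, 7.51% ± 0.63 in the CCDC97 knock-down and 7.74% ± 0.60 in control (SD, n = 3 each). This share ranged from 19.9% to 20.6% over the 3 TTC33 knock-down libraries, against 7.28% to 8.42% in control, so replicate 1 did not stand apart in it. CELSR1 made up 28.7% ± 1.06 in the TTC33 knock-down and 35.7% ± 0.43 in control, and CELSR2 51.2% ± 1.26 in the TTC33 knock-down and 56.6% ± 0.58 in control. The summed level of the 3 genes was 20.8 ± 2.09 CPM per kb in the TTC33 knock-down, 15.0 ± 3.04 in the CCDC97 knock-down and 18.1 ± 0.34 in control.

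**Figure D3:**
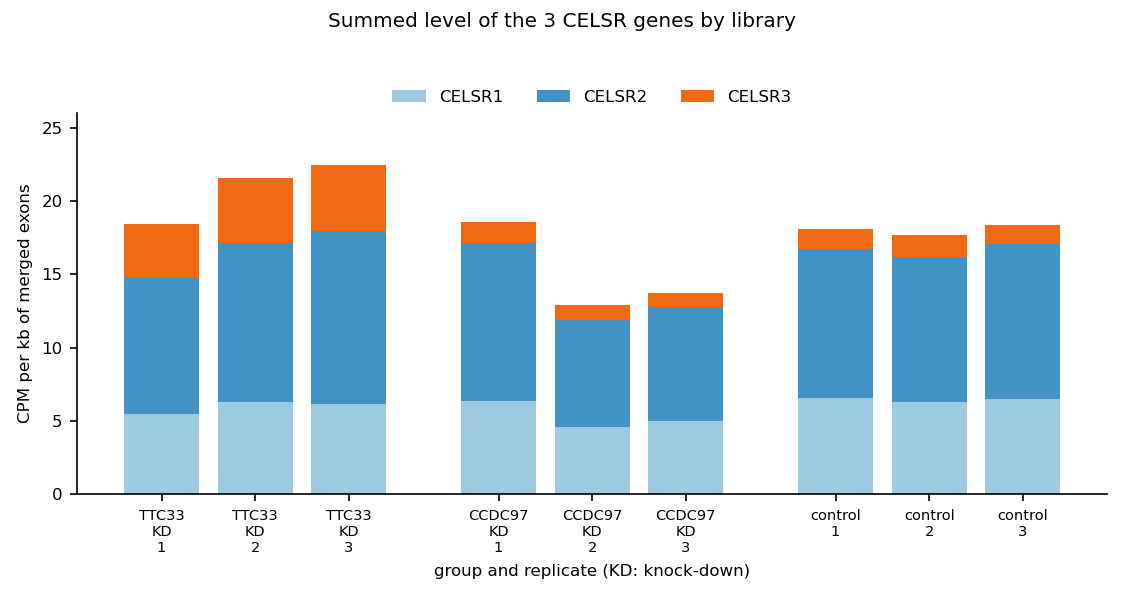
Stacked CPM per kb of merged exons (vertical axis) of CELSR1, CELSR2 and CELSR3 in each library, with the TTC33 knock-down, the CCDC97 knock-down and control from left to right. The CELSR3 segment is taller in the 3 TTC33 knock-down libraries than in the other 6, at a mean of 4.19 CPM per kb against 1.40 in control.

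PCDH19, an X-linked delta-2 protocadherin whose variants cause an epilepsy that mainly affects females, lies on the minus strand at chrX:100291644-100410273. It had 36.1, 27.7 and 30.7 CPM in CCDC97 knock-down replicates 1, 2 and 3, 82.0, 73.0 and 75.7 CPM in the TTC33 knock-down, and 83.6, 85.8 and 84.1 CPM in control. The highest CCDC97 knock-down library was below the lowest of the other groups, and the TTC33 knock-down lay just below control without overlap. In the CCDC97 knock-down the log2 fold change was -1.42 ± 0.10, a 2.68-fold lower level, and it was past the threshold in all 9 fits that left out one library, between -1.54 and -1.34. The U tables alone gave -1.49. In the TTC33 knock-down it was -0.14 ± 0.09 and not past the threshold, and -0.20 and past it with the GC and length correction. PCDH19 made up 10.6% to 13.9% of the summed CPM per kb of the 7 protocadherins in the CCDC97 knock-down libraries and 27.7% to 28.2% in the control libraries. Its window is chrX:100410274-100410523 on the minus strand, with GC boxes 140 and 106 bases and a CCAAT box 71 bases before the start:

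PCDH19: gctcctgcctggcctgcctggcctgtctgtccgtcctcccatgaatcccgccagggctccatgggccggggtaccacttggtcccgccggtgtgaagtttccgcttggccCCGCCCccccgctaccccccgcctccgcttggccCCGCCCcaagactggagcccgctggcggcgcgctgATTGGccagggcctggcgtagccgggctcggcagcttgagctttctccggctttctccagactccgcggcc

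PCDH10, a delta-2 protocadherin that recruits the WAVE complex to cell contacts, lies on the plus strand at chr4:133149315-133208606. It had 85, 86 and 85 counts in TTC33 knock-down replicates 1, 2 and 3, 17, 20 and 10 counts in the CCDC97 knock-down, and 13, 21 and 20 counts in control, so its values rest on few reads. Scaled to depth these were 2.73, 2.98 and 3.25 CPM in the TTC33 knock-down, 0.60, 0.66 and 0.48 CPM in the CCDC97 knock-down, and 0.36, 0.57 and 0.63 CPM in control. The TTC33 knock-down was above both other groups in every library, and those 2 overlapped. Of the 10 genes it had the largest fitted change, a log2 fold change of 2.52 ± 0.21 or 5.72-fold in the TTC33 knock-down, past the threshold in all 9 fits that left out one library. The CCDC97 knock-down gave 0.19 ± 0.26, not past it.

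PCDH17, which in mice carries axons along each other by bringing the WAVE complex to their contacts, lies on the plus strand at chr13:57631810-57729311. It had 44, 51 and 41 counts in the TTC33 knock-down, 26, 19 and 16 counts in the CCDC97 knock-down, and 26, 21 and 9 in control. These were 1.41, 1.77 and 1.57 CPM in the TTC33 knock-down, 0.92, 0.63 and 0.77 CPM in the CCDC97 knock-down, and 0.72, 0.57 and 0.29 CPM in control. Only the TTC33 knock-down lay apart from the other groups, and the CCDC97 knock-down and control overlapped. The log2 fold change was 1.56 ± 0.27 in the TTC33 knock-down, a 2.95-fold higher level, between 1.29 and 1.85 in the 9 fits that left out one library and past the threshold in each. For the CCDC97 knock-down it was 0.53 ± 0.31 and not past the threshold. The exons of PCDH17 share 654 bases with those of an antisense gene, and no source used here gives the strand setting of the counting. Its window is chr13:57631494-57631743 on the plus strand, with a CCAAT box 134 bases before the start and no GC box:

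PCDH17: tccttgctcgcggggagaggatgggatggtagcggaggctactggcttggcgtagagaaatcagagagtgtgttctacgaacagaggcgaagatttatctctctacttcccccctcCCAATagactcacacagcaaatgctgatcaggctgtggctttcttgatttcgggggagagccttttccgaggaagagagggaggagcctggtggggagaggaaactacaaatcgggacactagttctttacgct

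PCDH8, which in rat neurons is made upon activity and acts with the kinase TAOK2 to take up N-cadherin, was at the limit of what the depth allows. It had 5, 28 and 20 counts in the TTC33 knock-down, 8, 6 and 4 counts in the CCDC97 knock-down, and 9, 12 and 5 in control. TTC33 knock-down replicates 2 and 3 were above all other libraries and replicate 1 was among the lowest. The log2 fold change in the TTC33 knock-down was 1.31 ± 0.53 and not past the threshold, and without replicate 1 it was 1.79 and past it. No difference was detectable in the CCDC97 knock-down at this depth (-0.13 ± 0.66).

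PCDH1, known from airway epithelium and as an entry receptor of New World hantaviruses, lies on the minus strand at chr5:141853111-141879246. It had 12.8, 14.5 and 13.4 CPM in the TTC33 knock-down, 9.02, 6.41 and 6.39 CPM in the CCDC97 knock-down, and 8.57, 9.99 and 9.70 CPM in control. Each TTC33 knock-down library was above all others, and the CCDC97 knock-down and control overlapped through replicate 1. The log2 fold change was 0.53 ± 0.13 in the TTC33 knock-down and past the threshold, 1.44-fold, and 0.35 with the GC and length correction. This call is the weakest of the 4. Leaving out TTC33 knock-down replicate 2 or 3, or any one control library, ended it, and over all 9 such fits the log2 fold change lay between 0.46 and 0.57. In the fits that ended it, 552 to 700 genes were called in this comparison, against 2186 as fitted. PCDH1 in the CCDC97 knock-down was at -0.37 ± 0.14, not past the threshold, and at -0.56 and past it without replicate 1 of that group. Its window, before a RefSeq start inside the GENCODE gene, is chr5:141869628-141869877 on the minus strand, with GC boxes 114 and 59 bases before the start and only 6 CpG dinucleotides:

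PCDH1: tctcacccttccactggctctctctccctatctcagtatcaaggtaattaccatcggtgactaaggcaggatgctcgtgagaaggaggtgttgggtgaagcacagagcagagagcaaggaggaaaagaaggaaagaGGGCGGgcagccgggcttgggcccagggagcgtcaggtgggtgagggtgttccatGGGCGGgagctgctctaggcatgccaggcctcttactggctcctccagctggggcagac

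PCDH7, whose cytoplasmic tail binds the SET protein, varied little between libraries. It had 206, 209 and 206 CPM in the TTC33 knock-down, 198, 201 and 205 CPM in the CCDC97 knock-down, and 190, 189 and 190 CPM in control. Both knock-downs were above control in every library, by a log2 fold change of 0.12 ± 0.05 with the TTC33 microRNA and 0.09 ± 0.05 with the CCDC97 microRNA, neither past the threshold. With the GC and length correction these were 0.22, past the threshold, and 0.06, not past it. In the direct contrast of TTC33 against CCDC97 knock-down PCDH7 was at 0.04 ± 0.05, not past the threshold, and with the correction at 0.16 and past it.

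PCDH9, a delta-1 protocadherin of the brain with an unusually long 3' UTR of 24327 bases, had 185, 128 and 125 CPM in the TTC33 knock-down, 152, 192 and 189 CPM in the CCDC97 knock-down, and 161, 159 and 156 CPM in control. Replicate 1 of each knock-down lay on the other side of control from replicates 2 and 3. The log2 fold change in the TTC33 knock-down was -0.12 ± 0.14 as fitted, -0.32 without TTC33 knock-down replicate 1 and 0.19 with the GC and length correction, the last 2 past the threshold in opposite directions, so no direction can be given. The CCDC97 knock-down gave 0.16 ± 0.14 as fitted and 0.16 with the correction, past the threshold only with it. Its exons share 144 bases with the antisense gene PCDH9-AS1.

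**Figure D4:**
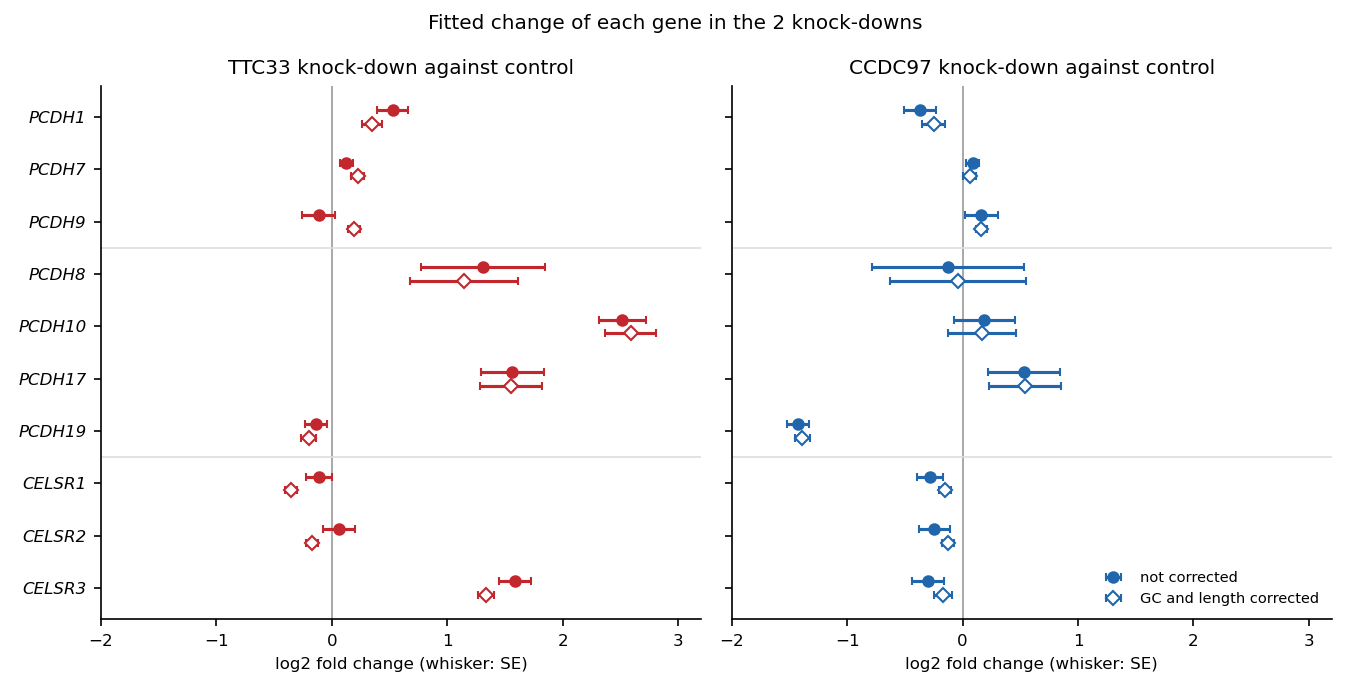
Log2 fold change with its SE (horizontal axis) of each gene in the TTC33 knock-down (left) and the CCDC97 knock-down (right), each against control, as fitted (filled circles) and after correction for GC content and length (open diamonds). Grey lines part the delta-1, delta-2 and CELSR genes. The correction moves CELSR1, CELSR2 and PCDH9 across or away from 0 in the TTC33 knock-down and leaves PCDH10 (2.52 and 2.59), CELSR3 (1.58 and 1.33) and PCDH19 in the CCDC97 knock-down (-1.42 and -1.39) far from it.

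Per kb of merged exons, the order of levels in control was PCDH7 at 15.5 CPM per kb, CELSR2 at 10.2, PCDH19 at 8.66, CELSR1 at 6.44, PCDH9 at 5.12, PCDH1 at 1.60, CELSR3 at 1.40, PCDH17 at 0.063, PCDH10 at 0.051 and PCDH8 at 0.047. Among neighbours in this order, PCDH1 and CELSR3 overlapped over the 3 libraries, and so did PCDH17, PCDH10 and PCDH8. All other neighbours were apart. In the TTC33 knock-down CELSR3, at 4.19 CPM per kb, stood above PCDH1, at 2.30, in every library. PCDH10, at 0.294, stood above PCDH17, at 0.190. In the CCDC97 knock-down PCDH19, at 3.23 CPM per kb, stood below both PCDH9 and CELSR1. The 7 protocadherins together reached 32.4 ± 1.28 CPM per kb in the TTC33 knock-down, 26.8 ± 0.37 in the CCDC97 knock-down and 31.0 ± 0.17 in control.

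Genes with the pattern most like PCDH19 over the 9 libraries, out of 11348 genes that averaged 5 CPM or more, were TIAM1 (Pearson's r of log2 CPM 0.991), RAB3B (0.991) and DNAJC3-DT (0.989). RAB3B, a small GTPase of secretory vesicles, had a log2 fold change of -1.13 ± 0.09 in the CCDC97 knock-down, and TIAM1, an exchange factor for the GTPase RAC1, one of -0.53 ± 0.06. Those most like PCDH10 were SCAMP5 (0.986), SYP (0.984) and MMP24 (0.984). SYP, the synaptic vesicle protein synaptophysin, had a log2 fold change of 2.23 ± 0.12 in the TTC33 knock-down, SCAMP5, another synaptic vesicle protein, one of 1.25 ± 0.10, and MMP24, a membrane metalloprotease, one of 2.94 ± 0.15. These coefficients are descriptions over libraries that fall into 3 groups and share depth and GC trends.

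The nearest tested protein-coding genes on both sides of the 10 genes came to 18. The search covered a fixed number of protein-coding genes per side and held no tested gene above PCDH8 or below PCDH17. Of these, 2 passed the adjusted threshold (edgeR) in the TTC33 knock-down against control, beside 11.9% of all genes, 1 in the CCDC97 knock-down against control, beside 4.56%, and 3 between the knock-downs, beside 21.5%. PABPC4L, a relative of cytoplasmic poly(A)-binding proteins 988 kb above PCDH10, had 3.92 ± 0.13 CPM in the CCDC97 knock-down, 0.705 ± 0.25 CPM in the TTC33 knock-down and 0.309 ± 0.08 CPM in control (SD, n = 3 each). It rose in the CCDC97 knock-down by a log2 fold change of 3.66 ± 0.25 (adjusted p = 1.89e-05), where PCDH10 was not past the threshold. It rose in the TTC33 knock-down by 1.21 ± 0.31 (adjusted p = 0.0303), a call lost without TTC33 knock-down replicate 2 or any one control library. DIAPH2, a formin 2687 kb below PCDH19, fell in the TTC33 knock-down by 0.33 on the log2 scale (adjusted p = 0.0425), and only 2 of 9 fits that left out one library kept that call. Between the knock-downs, TTC33 over CCDC97, PABPC4L was at -2.45 ± 0.22, past the threshold in all 9 fits that left out one library. With the GC and length correction it was at -2.06 and past it. In the same contrast DIAPH2 was at -0.31 and ARAP3, 171 kb below PCDH1, at 0.53, both past the threshold. With the GC and length correction DIAPH2 was at -0.14 and ARAP3 at 0.24 in that contrast, no longer past it. Neither neighbour of CELSR3, SLC26A6 at 0.976 kb and NCKIPSD at 10.9 kb, passed the threshold in the TTC33 knock-down, at log2 fold changes of 0.19 ± 0.11 each.

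The counts for other genes of these pathways stand beside 11.9% of all genes called with the TTC33 microRNA and 4.56% with the CCDC97 microRNA, and the GC and length correction changes several of them. In the planar cell polarity list (Vangl, Prickle, Frizzled, Dishevelled and their effectors), 0 of 17 tested genes passed in the TTC33 knock-down. With the CCDC97 microRNA 1 of 17 fell and 0 rose: FZD6, a Frizzled receptor that works with CELSR1 in mouse skin, had 24.7 ± 3.19 CPM in the CCDC97 knock-down and 40.0 ± 0.82 CPM in control, a log2 fold change of -0.70 ± 0.13 (edgeR, adjusted p = 0.0155). This call was lost when any one control library was left out. In those fits 203 to 241 genes were called in this comparison, against 835 as fitted. Over all 9 fits that left out one library, the log2 fold change of FZD6 lay between -0.78 and -0.60. The list had a median log2 fold change of 0.14 for the TTC33 and -0.03 for the CCDC97 knock-down, beside 0.00 for all genes. With the correction, 2 of the 17 rose and 5 fell in the TTC33 knock-down, beside 28.4% of all genes called, and 0 rose and 1 fell in the CCDC97 knock-down, beside 20.7%.

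In the WAVE complex, which PCDH10 and PCDH17 recruit, 1 of 10 tested genes fell in the TTC33 knock-down and 0 rose. ABI2, one of its subunits, had 74.0 ± 8.42 CPM in the TTC33 knock-down and 94.3 ± 0.90 CPM in control, a log2 fold change of -0.35 ± 0.08 (edgeR, adjusted p = 0.0241), and the call was lost without TTC33 knock-down replicate 2 or 3 or any one control library. None of the 10 passed in the CCDC97 knock-down as fitted. With the correction, 2 of the 10 rose and 3 fell with the TTC33 microRNA, beside 28.4% of all genes called. With the CCDC97 microRNA 3 rose and 1 fell, beside 20.7%. Of the 7 cytoplasmic partners, SET, a histone chaperone and inhibitor of protein phosphatase 2A that binds PCDH7, fell in the CCDC97 knock-down, with 658 ± 32.1 CPM there and 1027 ± 22.7 CPM in control. Its log2 fold change was -0.64 ± 0.06 (edgeR, adjusted p = 0.000226), past the threshold in all 9 fits that left out one library. PPP1CA, a catalytic subunit of protein phosphatase 1, rose in the TTC33 knock-down by 0.33 ± 0.09 (edgeR, adjusted p = 0.042), a call kept in 2 of those 9 fits. With the correction, 1 of the 7 partners rose and 1 fell in the TTC33 knock-down, and 0 rose and 1 fell in the CCDC97 knock-down.

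Of the 15 classical cadherins, 8 were tested, of which 1 rose and 1 fell in the TTC33 knock-down and 0 passed in the CCDC97 knock-down. With the GC and length correction, 1 rose and 2 fell in the TTC33 knock-down, beside 28.4% of all genes called. In the CCDC97 knock-down 1 rose and 0 fell with it, beside 20.7%. CDH1, epithelial cadherin, had 4.85 ± 0.87 CPM in the TTC33 knock-down and 10.8 ± 1.30 CPM in control, a log2 fold change of -1.15 ± 0.14 (edgeR, adjusted p = 0.000763). CDH12, a neuronal cadherin near the detection limit, rose, with 0.659 ± 0.14 CPM in the TTC33 knock-down and 0.068 ± 0.04 CPM in control (log2 fold change 3.21 ± 0.46, edgeR, adjusted p = 0.00191). Its control libraries held only 0.027 to 0.095 CPM, so the size of this fold is not reliable. The calls of CDH1 and CDH12 both held in all 9 fits that left out one library. CDH2, N-cadherin, the partner of PCDH19, had 150 ± 14.3 CPM in the TTC33 knock-down, 151 ± 7.33 CPM in the CCDC97 knock-down and 146 ± 1.72 CPM in control. Among the catenins, 1 of 4 tested rose in the TTC33 knock-down, JUP (plakoglobin), by 0.46 ± 0.13 (edgeR, adjusted p = 0.0476), kept in 2 of 9 such fits. With the correction, 3 of the 4 catenins rose with the TTC33 microRNA and 2 with the CCDC97 microRNA, and none fell. These stand beside the same 28.4% and 20.7% of all genes called.

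Fat and Dachsous cadherins, a separate polarity system, had 6 genes tested, of which 0 passed with the TTC33 microRNA and 1 with the CCDC97 microRNA. With the correction, 1 of the 6 rose and 2 fell in the TTC33 knock-down, beside 28.4% of all genes called. In the CCDC97 knock-down 4 rose and 0 fell, beside 20.7%. FAT4 had 76.7 ± 1.54 CPM in the CCDC97 knock-down and 58.6 ± 1.11 CPM in control, a log2 fold change of 0.39 ± 0.06 (edgeR, adjusted p = 0.00675), lost without control replicate 1 or 3. Of 6 other non-clustered protocadherins and tip-link cadherins, 3 were tested. As fitted, 0 passed in the TTC33 knock-down, and 1 rose and 0 fell in the CCDC97 knock-down. With the correction, 1 rose and 1 fell in the TTC33 knock-down, and 2 rose and 0 fell in the CCDC97 knock-down. PCDH18, a delta-2 relative, rose in the CCDC97 knock-down, with 12.8 ± 0.48 CPM there and 9.58 ± 0.88 CPM in control (log2 fold change 0.42 ± 0.10, edgeR, adjusted p = 0.0376), a call kept in 2 of 9 fits that left out one library. PCDH20, PCDH12 and PCDH11X were below the filter on low counts.

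The list counts between the knock-downs, TTC33 over CCDC97, stand beside 21.5% of all genes called, 11.3% higher and 10.2% lower. Of the 17 planar cell polarity genes 2 rose and 3 fell, among them FZD6 (log2 fold change 0.61 ± 0.13) and INTU, which acts in cilium formation (-0.48 ± 0.13). Of the 10 WAVE genes 0 rose and 2 fell, ABI2 (-0.32 ± 0.08) and CYFIP1 (-0.22 ± 0.06). Of the 8 classical cadherins 2 rose and 2 fell, among them CDH1 (-0.95 ± 0.14), CDH3, placental cadherin (-0.60 ± 0.12), and CDH12, whose few counts in the CCDC97 knock-down give no reliable fold. Of the 7 cytoplasmic partners 2 rose and 1 fell, SET (0.52 ± 0.06), TAOK2 (0.46 ± 0.11) and PPP1CC (-0.35 ± 0.11). Of the 4 catenins JUP rose (0.63 ± 0.13) and CTNNB1, beta-catenin, fell (-0.25 ± 0.08), and of the 6 Fat and Dachsous genes FAT3 fell (-0.28 ± 0.06). With the GC and length correction, TAOK2, PPP1CC and WDPCP, another planar cell polarity gene that fell, were no longer past the threshold. Of the 2 planar cell polarity genes that rose as fitted, FZD6 still rose past it and DVL2 (0.29 ± 0.08 as fitted) did not. Of the list genes named for this contrast other than DVL2, CDH1, CDH3, CDH12, FZD6 and SET kept their call in all 9 fits that left out one library. JUP kept it in 8, and the others in 2 to 6.

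**Figure D5:**
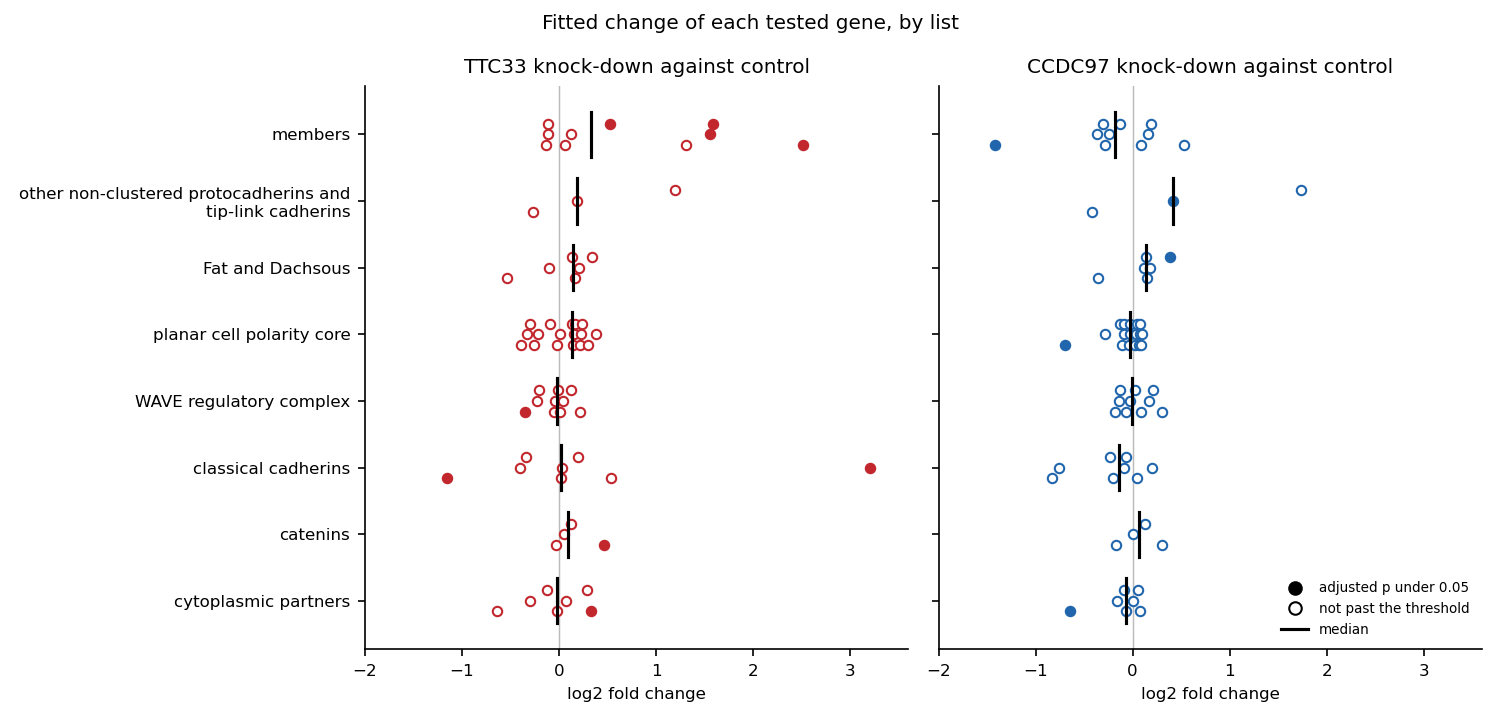
Log2 fold change (horizontal axis) of the 10 members and of every tested gene of 7 related lists (rows) in the TTC33 knock-down (left) and the CCDC97 knock-down (right), each against control. Filled points passed the adjusted threshold, open points did not, and the black line is the median of the list. The planar cell polarity and WAVE genes lie within 1 log2 unit of 0 in both panels. Single members of other lists, such as CDH12 at 3.21 (few counts in control) and CDH1 at -1.15, lie farther out.

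Of the 7 neuron markers 5 were tested. Of these, 3 rose in the TTC33 knock-down (SNAP25, SYT1 and TUBB3) and none fell, beside 6.5% of all genes that rose. RBFOX3 and MAP2 were not past the threshold, and NEFL, listed with the HEK293 line, fell. Levels were low for SYT1 (0.506 ± 0.10 CPM in the TTC33 knock-down, 0.122 ± 0.05 CPM in control). They were also low for TUBB3 (0.902 ± 0.17 and 0.413 ± 0.03 CPM). The markers were listed with earlier results known, so nothing is read from this count. SNAP25, a synaptic vesicle fusion protein, had 9.68 ± 1.09 CPM in the TTC33 knock-down, 4.17 ± 0.32 CPM in the CCDC97 knock-down and 4.74 ± 0.34 CPM in control. Markers of other types moved in the same group. LUM, a fibroblast marker, rose, with 0.655 ± 0.38 CPM in the TTC33 knock-down and 0.105 ± 0.03 CPM in control, a call lost without control replicate 1 or 3. LRP2, the kidney marker, fell. The part of such genes in the values of the protocadherins and CELSR3 was not tested.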

How the data were processed

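Total RNA of 9 libraries of HEK293 Flp-In T-REx cells was sequenced. The deposited values are raw whole-number counts per gene. The authors, per the submitters' processing notes, trimmed reads with Trimmomatic 0.39, aligned them with HISAT2 and counted them with HTSeq 2.0.1 on GRCh38. No source used here gives the annotation release, the strand setting or the meaning of the R12 and U tables. R12 counts were used, and U counts, 6.55% to 11.9% of the sum, served as an alternative. Rows that name no gene held 33.4% to 57.9% of R12 counts and were left out.

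The members and lists were chosen with earlier results of these data known. Named genes are the 10 members, up to 3 genes past the threshold with the smallest p per list and comparison, the nearest tested genes and the 3 most similar genes. CDH2, DVL2, the untested protocadherins and the markers named singly were added after their values were seen.

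Genes passing filterByExpr (18299) were fitted with edgeR 4.0.16 in R 4.3.3 (TMM factors, quasi-likelihood, 1 term per group, 9 libraries, 6 residual degrees of freedom). Tests are two-sided, Benjamini-Hochberg adjusted over all 18299 genes, threshold 0.05. Standard errors are the log2 fold change over the root of its F value. The groups share the estimate of the spread, though their replicates differed unequally. Chi-square per degree of freedom between replicate counts was 3.55 to 6.23 in control and 26.6 to 33.5 in the CCDC97 knock-down. In the TTC33 knock-down it was 31.4 and 37.8 for replicate 1 against 2 and 3, and 7.32 for 2 against 3. Log2 values per library use a prior count of 2. The script was tested on simulated data.

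Alternatives were upper-quartile and RLE (DESeq2) factors, no filter or a minimum mean of 1 CPM, the Wald test of DESeq2 1.42.0, fits to 2 groups alone, a replicate block, U counts alone or summed with R12, a GC and length correction with mgcv 1.9.3 from GENCODE release 29 (18042 genes, 98.6%), and leaving out each library.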

Additional observations from a re-analysis of the deposited data

Results flagged for a closer look

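Of the 10 genes, 5 differed between the TTC33 and the CCDC97 knock-down by the direct contrast of those libraries (edgeR quasi-likelihood test, adjusted over all genes tested, 3 libraries a group). The log2 difference of TTC33 over CCDC97 knock-down was 1.89 for CELSR3, 0.9 for PCDH1, 2.33 for PCDH10, 1.03 for PCDH17 and 1.29 for PCDH19. All 3 TTC33 knock-down libraries were above all 3 CCDC97 knock-down libraries for each of these 5 genes. For CELSR3, PCDH10, PCDH17 and PCDH1 the TTC33 knock-down was the group past the threshold against control, and for PCDH19 it was the CCDC97 knock-down. The genes were chosen for such differences, so these are descriptions. PCDH17 lost this call without TTC33 knock-down replicate 2 or 3 or CCDC97 knock-down replicate 2 or 3, with log2 differences between 0.88 and 1.19 over the 9 fits that left out one library, and the other 4 kept it in all 9. PCDH17 also lost it with the replicate number as a block (adjusted p = 0.0561, edgeR).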

How the results depend on the processing

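The calls of CELSR3, PCDH10 and PCDH17 in the TTC33 knock-down against control and of PCDH19 in the CCDC97 knock-down against control kept their direction and stayed past the threshold under every alternative that tested them. PCDH10 and PCDH17 rest on few reads, and the U tables alone did not test PCDH8, PCDH10 and PCDH17. The cause was not tested for the changes below.

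Genes past the threshold in the TTC33 knock-down against control, 2186 as fitted, came to 3821 with no filter, 362 in U counts alone, 5116 with the GC and length correction and 552 to 6512 without one library. The 6512 came without TTC33 knock-down replicate 1. Without any one control library, or TTC33 knock-down replicate 2 or 3, the count was 552 to 700. Single calls lost in those fits thus stand beside a loss over all genes. Members past the threshold, 4 as fitted, came to 1 in U counts, 9 with the correction and 3 to 6 without one library. Their median, 0.33, was 0.09 with a filter on a mean of 1 CPM and 0.13 in summed R12 and U counts, where fewer members were tested, and 0.29 to 0.36 without one library.

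In the CCDC97 knock-down against control, 835 genes as fitted came to 1369 with no filter, 1447 by DESeq2, 1339 with 2 groups, 69 in U counts, 3728 with the correction and 203 to 1981 without one library. The count was 203 to 241 without any one control library and 1981 without TTC33 knock-down replicate 1. Members, 1 as fitted, came to 2 with no filter, 2 with the correction and 1 to 5 without one library, the 5 being without CCDC97 knock-down replicate 1. The median was -0.38 to -0.09 without one library.

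Between the knock-downs, 3943 genes came to 1479 with 2 groups, 709 in U counts and 1528 to 7767 without one library. The 7767 came without TTC33 knock-down replicate 1. Members, 5 as fitted, came to 8 with no filter, 3 in U counts and 4 to 8 without one library. The median, 0.96, was 0.61 with a filter on a mean of 1 CPM, 0.63 in U counts, 0.8 with the correction and 0.84 to 1.14 without one library.

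Deviations from the group means correlated at -0.50 to 0.09 between same-numbered libraries and at -0.27 to 0.37 between differently numbered ones. The GC trend that sets replicate 1 of each knock-down apart enters these deviations. They therefore cannot show whether the numbers pair the samples. With the replicate block, 756, 240 and 1857 genes passed in the TTC33 knock-down, the CCDC97 knock-down and between them. PCDH1 in the TTC33 knock-down lost its call under the block (adjusted p = 0.0926, edgeR). With block and correction together, 4759 and 3302 genes passed in the knock-downs against control, with 9 and 2 members, and the median between the knock-downs was 0.81.

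Directions reversed with the correction, and with block and correction alike, for CELSR2 (-0.17) and PCDH9 (0.19) in the TTC33 knock-down, and for CELSR1 (-0.21), CELSR2 (-0.04) and PCDH9 (0.03) between the knock-downs. PCDH9 in the CCDC97 knock-down was -0.01 in U counts. Without one library, CELSR2 in the TTC33 knock-down ranged from -0.03 to 0.15, and in the CCDC97 knock-down PCDH10 ranged from -0.03 to 0.34 and PCDH8 from -0.34 to 0.14.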
